A study of Mus musculus with 16 samples.

Results

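The cytochrome P450 genes of families Cyp1, Cyp2 and Cyp3 and the reductase gene Por were followed across 16 liver RNA libraries. The members were chosen by name, as rows whose symbol equals one of 42 listed genes. Of the 42, 40 had a row among the 55487 rows of the deposited tables and 37 passed the filter on low counts, among 13905 genes in all. Of the 3 members below the filter, Cyp2d11 reached at most 11.2 counts in a library, Cyp2d34 at most 5.46, and Cyp3a16 was at 0 in all 16 libraries. No row carries the symbol Cyp2c44, which RefSeq lists as an older name of Cyp2c23, or Cyp2d13, and these are not analysed here.

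All mice were labelled C57/Bl6J with the genotype J1 J2 lf/lf and were fed a high-fat diet. The 5 GFP libraries are the controls, the 5 Cre libraries are named for hepatocytes that carry the 7a isoforms of both JNK kinases, JNK1 and JNK2, and the 6 Flpo libraries for those with the 7b isoforms. Both recombinases rearrange conditional alleles. The sources used here do not name the carrier or promoter of GFP, Cre and Flpo, or the age and sex of the mice. The labels do not say that each library came from its own mouse, so the tests speak of differences beyond the spread of libraries, which may be technical in part, and the numbers in the titles run in blocks by group, so an animal or harvest batch and the group cannot be told apart.

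Cytochromes P450 of families 1 to 3 are heme enzymes of the endoplasmic reticulum that oxidise drugs, toxins, steroids and fatty acids, mostly in hepatocytes around the central vein. They receive electrons from the reductase encoded by Por, helped by cytochrome b5. Their transcription in liver is known to respond to the receptors AhR (Cyp1a genes), CAR and PXR (Cyp2b, Cyp2c and Cyp3a genes), to the liver factor HNF4A, to the pattern of growth hormone release that makes some of them sex-biased, and to clock output factors such as Dbp.

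Many members are recent copies of each other. Of the 40 members, 21 had another member at least 90% identical in coding sequence and 12 at least 95%, from the annotation of GRCm38. Reads can be shared between such copies, so their single values are uncertain. Cyp2a4 and Cyp2a5 were 98.4% identical, Cyp2a12 and Cyp2a22 97.0%, Cyp3a25 and Cyp3a59 97.5%, and Cyp2c67 and Cyp2c69 97.7%. The stretches upstream of the Cyp2a pairs are printed because the copies Cyp2a12 and Cyp2a22 differed widely from each other in the Cre livers. They run from 250 to 51 bases before the RefSeq start, on the gene's strand in GRCm38.p6, and the capitals mark bases that differ from the partner or have none in the alignment. Cyp2a12 and Cyp2a22 were identical over 80.8% of aligned positions, Cyp2a4 and Cyp2a5 over 97.5%. Bases without a partner at the ends count as differences. The capitals that end the Cyp2a12 stretch lie beyond the end of the Cyp2a22 stretch. The 80.8% thus depends in part on where the starts of the 2 genes are placed.
Cyp2a12, chr7:27028840-27029039, plus strand: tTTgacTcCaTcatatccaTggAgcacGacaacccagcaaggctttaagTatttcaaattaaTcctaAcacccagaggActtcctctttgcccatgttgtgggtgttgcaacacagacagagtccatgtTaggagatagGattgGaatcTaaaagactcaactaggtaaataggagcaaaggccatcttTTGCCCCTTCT
Cyp2a22, chr7:26939437-26939636, minus strand: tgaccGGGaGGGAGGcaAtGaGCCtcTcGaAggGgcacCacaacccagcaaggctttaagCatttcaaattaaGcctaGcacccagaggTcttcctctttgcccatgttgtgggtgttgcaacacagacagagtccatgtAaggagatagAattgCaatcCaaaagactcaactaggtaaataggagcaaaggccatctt
Cyp2a4, chr7:26306942-26307141, plus strand: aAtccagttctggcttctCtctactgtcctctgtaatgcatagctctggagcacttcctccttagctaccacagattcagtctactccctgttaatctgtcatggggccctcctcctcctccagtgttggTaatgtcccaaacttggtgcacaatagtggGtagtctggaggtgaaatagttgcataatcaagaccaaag
Cyp2a5, chr7:26835089-26835288, plus strand: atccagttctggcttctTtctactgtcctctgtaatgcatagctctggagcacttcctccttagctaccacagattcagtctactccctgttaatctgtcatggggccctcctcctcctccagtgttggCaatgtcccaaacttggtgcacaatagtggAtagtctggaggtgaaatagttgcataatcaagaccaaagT

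A search for 3 motifs on both strands of the 250 bases before the start covered the 33 members with a RefSeq promoter entry. The HNF4 motif CAAAGTCCA was in 6 of 33 members (18.2%), against 0.381% of 27025 promoters, and 4 of the 6 were the near-identical neighbours Cyp2c40, Cyp2c67, Cyp2c68 and Cyp2c69, with Cyp3a11 and Cyp3a16 as the others. The neighbours share most of their sequence, so these are not 6 independent cases. The match of Cyp2c67, a member that was higher in Cre livers, begins 125 bases before the start and stands in capitals here, and that of Cyp3a11, the most abundant Cyp3a member, begins 109 bases before it.
Cyp2c67, chr19:39649093-39649292, minus strand: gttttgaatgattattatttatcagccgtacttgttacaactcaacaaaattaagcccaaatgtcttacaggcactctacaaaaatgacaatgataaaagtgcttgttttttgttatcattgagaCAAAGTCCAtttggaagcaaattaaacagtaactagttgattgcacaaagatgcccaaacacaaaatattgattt
Cyp3a11, chr5:145879905-145880104, minus strand: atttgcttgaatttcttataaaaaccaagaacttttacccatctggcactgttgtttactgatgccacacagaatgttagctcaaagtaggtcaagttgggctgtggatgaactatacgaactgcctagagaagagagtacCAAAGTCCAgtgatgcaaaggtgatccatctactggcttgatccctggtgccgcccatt
The D-box TTANGTAA, the motif that Dbp is known to bind, was found in Cyp2c38 alone among the 33 (3.03%, against 2.11% of all promoters). The STAT5 motif TTCNNNGAA was found in 0 of 33 (7.18% of all). An absent match says only that these letters are not in this window.

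Each library held 27929393 to 36043322 estimated counts. Members are compared between groups in CPM (counts relative to the library total, scaled with TMM factors), by edgeR's quasi-likelihood test on all 13905 genes with Benjamini-Hochberg adjustment, and a gene was called at an adjusted p under 0.05. Levels are compared between genes in the deposited TPM, which is scaled for length. Both targeted genes were checked first: Mapk8 lay between 8.12 and 15.1 CPM and Mapk9 between 23.3 and 61.7 over the 16 libraries, and neither was called in any comparison (smallest adjusted p = 0.0784, Mapk9 in Flpo against Cre), which says nothing of which exon was used. Of 9 hepatocyte markers tested, 1 was higher (Apoa1) and 2 were lower in Cre livers than in GFP livers. Of all genes, 3.97% were higher and 5.58% lower in that comparison, which also stands beside the marker counts that follow. The median log2 fold change of the 9 was 0.37 in Cre against GFP, from CPM. Their summed level was 109678 to 120372 TPM in GFP, 88823 to 117011 in Cre and 97488 to 119379 in Flpo. Of 8 stellate markers 4 were lower in Cre than in GFP livers, with sums of 84.3 to 143 TPM in GFP, 48.2 to 94.7 in Cre and 105 to 156 in Flpo. Of 5 cholangiocyte markers tested 1 was higher in Cre (Sox9, 1.31, SE 0.26, adjusted p = 0.00455). The median log2 fold change of the 5 was -0.17 in Cre against GFP, in the other direction. The sums were 35.5 to 47.2, 23.3 to 45.3 and 32.7 to 81.3 TPM in that order. Of 6 endothelial markers 1 was higher in Cre (Kdr, 0.52, SE 0.15, adjusted p = 0.0316), with sums of 29.0 to 42.3, 33.5 to 40.4 and 22.1 to 46.8 TPM, and of 6 macrophage and 5 lymphocyte markers 0 were called. The part of these cell types in the members' differences was not tested. In bulk liver, fewer cells of a type and less RNA per cell cannot be told apart.

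The members' levels spanned more than 4 orders of magnitude, and 1 gene took most of the total. Cyp2e1, which oxidises ethanol and acetaminophen, had a mean of 7162 TPM over the 16 libraries, 6.40-fold above Cyp2d10 at 1119. Its values were 7539, 6951, 6566, 7501 and 8151 TPM in GFP 1 to 5, and 4366, 5340, 5508, 8919 and 5574 in Cre 1 to 5. The 6 Flpo libraries ran from 7090 to 8500 TPM with a median of 8203. Cre 4 was the highest of all 16 and the other 4 Cre libraries the lowest 4, and the difference in CPM was not called in any comparison: the log2 fold change was -0.14 in Cre against GFP (SE 0.12, adjusted p = 0.521, 95% interval -0.39 to 0.11) and 0.10 in Flpo against GFP (interval -0.14 to 0.35).

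None of the next 6 members by mean level was called in a comparison. Cyp2d10 had 963, 1039, 1097, 1036 and 1128 TPM in GFP, 1107, 945, 1080, 1219 and 1171 in Cre, and 1083 to 1292 in Flpo (median 1176). Cyp2d26 had 846, 754, 853, 854 and 973 TPM in GFP, 708, 854, 716, 1035 and 581 in Cre, and 845 to 1020 in Flpo (median 979). Cyp2f2, known for naphthalene oxidation in lung, had 609, 460, 500, 570 and 538 TPM in GFP, 648, 507, 613, 572 and 412 in Cre, and 471 to 590 in Flpo (median 557). The 3 groups overlapped for each of these genes. Cyp3a11, the main drug-oxidising Cyp3a enzyme of mouse liver, had 651, 416, 295, 451 and 483 TPM in GFP, 226, 336, 288, 552 and 243 in Cre, and 303 to 699 in Flpo (median 535). Cyp2c50 had 345, 290, 365, 380 and 604 TPM in GFP, 254, 321, 359, 567.8 and 220 in Cre, and 326 to 527 in Flpo (median 408). Cyp2a12 had 399, 311, 425, 405 and 532 TPM in GFP, 316, 300, 305, 348 and 234 in Cre, and 351 to 523 in Flpo (median 421). Cre 4 again stood highest of its group in each of these 3. For Cyp2a12 every Cre library lay below every Flpo library in TPM, whereas the 2 groups overlapped in CPM, where the log2 fold change of Flpo against Cre was 0.30 (SE 0.13, adjusted p = 0.142, 95% interval 0.03 to 0.58). The eighth by mean level, Cyp2a5 (371 TPM), is described with its subfamily.

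**Figure D1:**
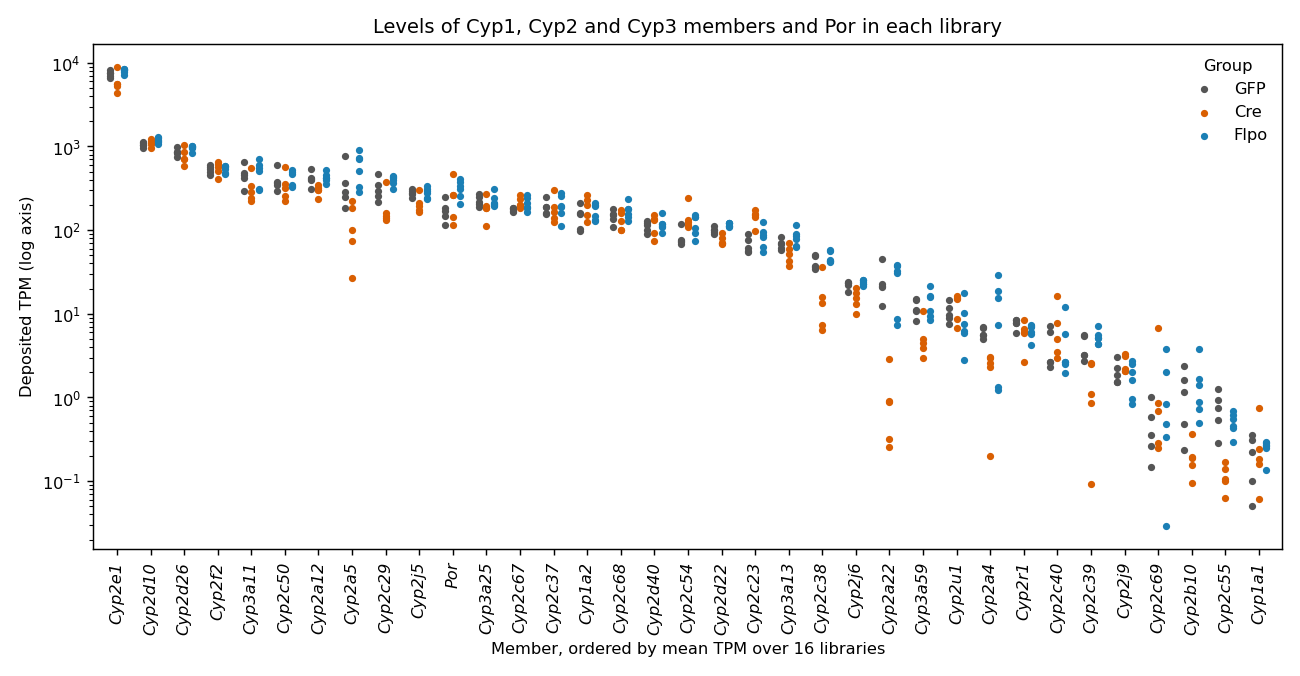
Deposited TPM (log axis) of each member with a value above 0 in every library, ordered by mean TPM, with 1 point per library coloured by group (GFP 5, Cre 5, Flpo 6). Cyp2e1 stands above all others at 4366 to 8919 TPM, and the Cre points of Cyp2a22 lie below all GFP and Flpo points of that gene.

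The Cyp members summed to 1.21% to 1.57% of all TPM in GFP livers, 0.941% to 1.61% in Cre livers and 1.30% to 1.66% in Flpo livers, and Cyp2e1 made 46.4% to 57.4% of that sum. The mean sum was 13470 ± 1406 TPM over the 5 GFP libraries (SD), 11394 ± 2702 over the 5 Cre and 14964 ± 1256 over the 6 Flpo libraries. Cre 4 had the highest sum of its group at 16141 TPM. By subfamily, Cyp2a members summed to 815 ± 315 TPM in GFP, 426 ± 120 in Cre livers and 1048 ± 316 in Flpo, and Cyp3a members to 766 ± 169, 575 ± 183 and 819 ± 198. Cyp2c members summed to 1425 ± 307, 1384 ± 402 and 1647 ± 255 TPM, and Cyp2d members to 2119 ± 145, 2078 ± 231 and 2386 ± 116, in the same order. TPM is relative to the library total, and on the log2(TPM + 1) scale the median of all genes lay 0.12 lower in Cre than in GFP and 0.14 higher in Flpo than in Cre, so these sums were given without a test.

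Against GFP livers, Cre livers had 9 of 37 members called, or 24.3%, where 9.55% of all 13905 genes were called. There were 3 higher (Cyp2c23, Cyp2c54 and Cyp2c67) and 6 lower (Cyp2a22, Cyp2g1, Cyp2c55, Cyp2b10, Cyp2c38 and Cyp3a59), beside 3.97% of all genes higher and 5.58% lower. Cyp2g1 and Cyp2c55 stayed below the filter's minimum count of 10 in every Cre library. They passed the filter through GFP and Flpo libraries, where they are higher, and Cyp2b10 did so for the most part. The share of members called lower in Cre is therefore not independent of the filter. The members' median log2 fold change was -0.14, against 0.0014 for all genes. The CPM ranges of Cre and GFP did not overlap for 7 members, where this held for 8.20% of all genes. The falls reached 21.8-fold (Cyp2a22, which has a near copy in Cyp2a12) and the called rises 2.40-fold.

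Flpo livers had 0 of 37 members called against GFP livers, where 0.0288% of all genes were called, and 3 members had an unadjusted p under 0.05. DESeq2 also called 0 members. No member had ranges that did not overlap between Flpo and GFP, where this held for 1.55% of all genes. The smallest adjusted p was 0.422, shared by Cyp2d22 and Por. Of the 37 log2 fold changes 30 were positive, with a median of 0.14 against -0.0055 for all genes, and they ran from -0.62 (Cyp2c55) to 1.32 (Cyp2c69). The 95% intervals of the log2 differences reached between 0.17 and 2.12 to either side (median 0.48). For Cyp2a22 the interval ran from -1.11 to 1.12.

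Flpo livers against Cre livers had 12 of 37 members called, or 32.4%, where 13.7% of all genes were called. There were 11 higher in Flpo (Cyp2a5, Cyp2a22, Cyp2b10, Cyp2c29, Cyp2c38, Cyp2c39, Cyp2c55, Cyp2d22, Cyp2g1, Cyp2j6 and Cyp3a59) and 1 was lower (Cyp2c23), beside 7.45% of all genes higher and 6.26% lower. Here too Cyp2b10, Cyp2c55 and Cyp2g1 had passed the filter mainly or only through GFP and Flpo libraries. Ranges did not overlap for 8 members, where this held for 7.84% of all genes. The members' median log2 fold change was 0.14, against -0.0050 for all genes. Both comparisons use the same Cre libraries, so the 7 members called in both are not independent of each other.

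**Figure D2:**
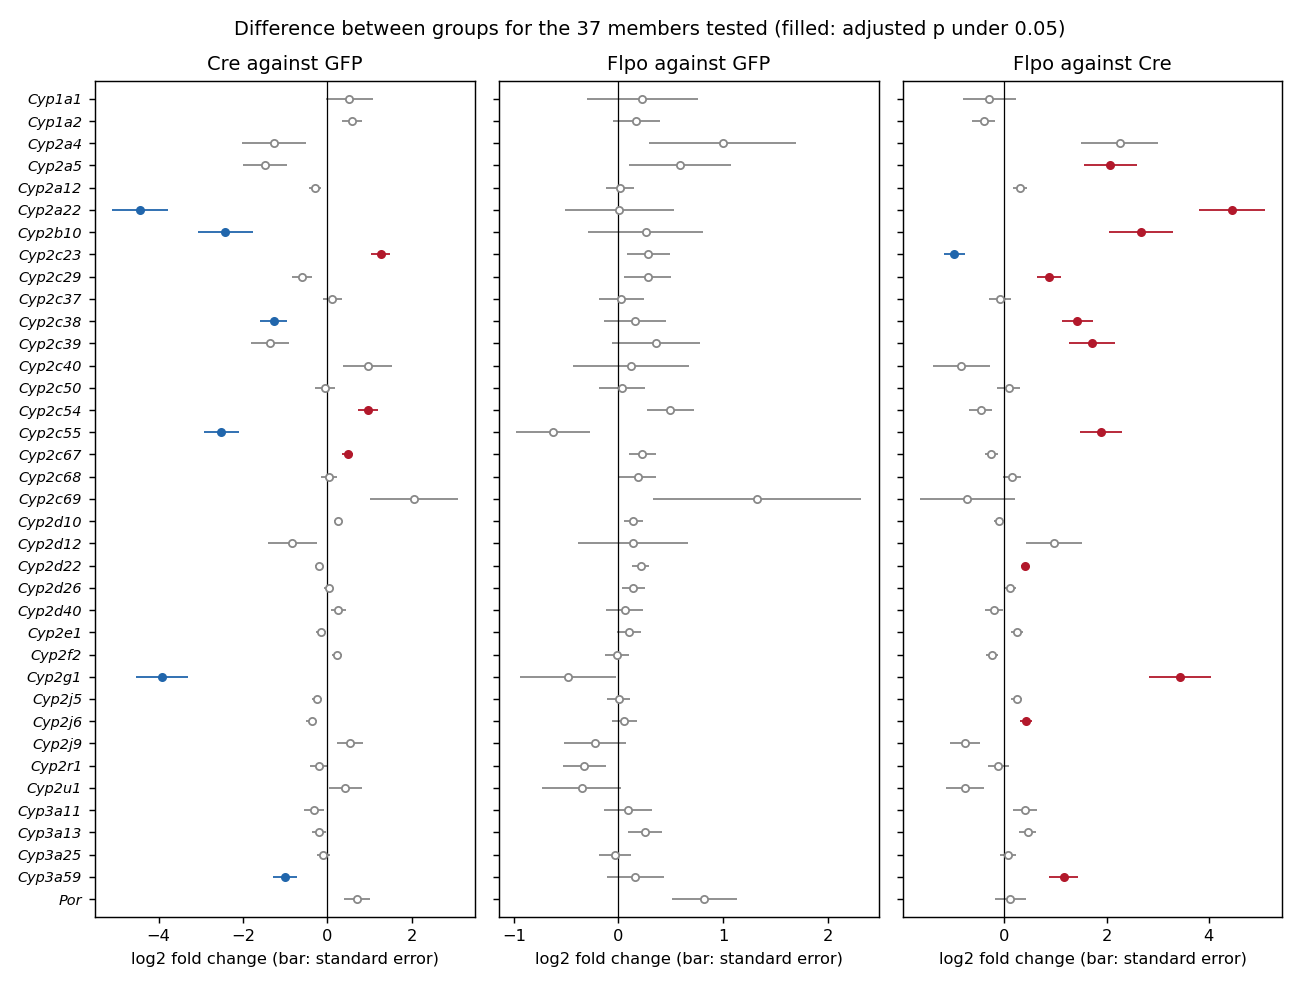
The log2 fold change and standard error of each of the 37 members tested, in Cre against GFP, Flpo against GFP and Flpo against Cre; filled red points were called higher, filled blue points lower and open points were not called, and the 3 panels have different axis ranges. The 6 blue points of the first panel reach -4.44 and the middle panel has no filled point.

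In the Cyp1a subfamily no member was called. Cyp1a2, the abundant liver enzyme that oxidises caffeine and is a classic AhR target, had 210 ± 75.0 CPM in the 5 GFP libraries (mean ± SD), 314 ± 85.7 in the 5 Cre libraries and 237 ± 50.8 in the 6 Flpo libraries, and the other means stand over the same numbers of libraries. Its log2 fold change in Cre against GFP was 0.58 (SE 0.24, adjusted p = 0.138, 95% interval 0.08 to 1.08). Cyp1a1, which is nearly silent in liver without an inducer, lay between 0.102 and 1.47 CPM over all libraries. The transcription factor gene Ahr lay at 37.4 ± 7.97 CPM in GFP, 29.7 ± 11.4 in Cre livers and 43.6 ± 9.88 in Flpo and was not called.

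The Cyp2a genes held the widest contrast between near-identical neighbours. Cyp2a22 lies on chromosome 7 from 26931631 to 26939384 and had 30.0, 18.2, 36.1, 28.8 and 70.2 CPM in GFP 1 to 5. In Cre 1 to 5 it had 0.536, 1.54, 0.485, 4.15 and 1.49 CPM, and in Flpo it ran from 10.4 to 53.4 with a median of 46.1. Every Cre library lay below every GFP and Flpo library. It changed by -4.44 log2 units in Cre against GFP (SE 0.66, adjusted p = 0.000863), a 21.8-fold fall, and 4.45 in Flpo against Cre (SE 0.65, adjusted p = 0.000529). Its neighbour Cyp2a12, a steroid hydroxylase at 27029081 to 27037375 with 97.0% of the coding bases alike, had 509 ± 116 CPM in GFP, 417 ± 52.9 in Cre livers and 514 ± 54.2 in Flpo (log2 fold change -0.29 in Cre against GFP, SE 0.14, adjusted p = 0.205). With the counts of both summed, the pair had 545 ± 135 CPM in GFP, 418 ± 52.6 in Cre livers and 551 ± 70.0 in Flpo, and neither difference was called: -0.38 in Cre against GFP (SE 0.15, adjusted p = 0.112) and 0.40 in Flpo against Cre (SE 0.14, adjusted p = 0.0709). Cyp2a22 had a mean of only 36.7 CPM in GFP, so the sum is mostly Cyp2a12 and says little of Cyp2a22 alone. The fall of Cyp2a22 may depend on how reads were divided between the copies. The sources used here do not say how reads that match both were counted.

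Cyp2a5, the mouse coumarin hydroxylase, lies on chromosome 7 from 26835305 to 26843548. It had 352, 274, 580, 402 and 1188 CPM in GFP, 311, 128, 186, 327 and 46.0 in Cre, and 437 to 1263 in Flpo (median 886). The lowest Flpo library stood above the highest Cre library, whereas GFP and Cre overlapped. Cyp2a5 was higher in Flpo than in Cre (log2 fold change 2.07, SE 0.51, adjusted p = 0.0151), and its difference between Cre and GFP was -1.49 (SE 0.52, adjusted p = 0.0874). Its copy Cyp2a4, a steroid hydroxylase gene, was far lower at 7.52 ± 1.17 CPM in GFP, 3.13 ± 1.61 in Cre livers and 15 ± 13.6 in Flpo, with Flpo libraries from 1.58 to 35.6. Cyp2a4 was not called, although all 5 Cre libraries lay below all 5 GFP libraries. With the counts of both summed, the log2 fold change in Flpo against Cre was 2.08 (adjusted p = 0.0137) and in Cre against GFP -1.48 (adjusted p = 0.0831).

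Cyp2b10, the textbook CAR target, was scarce in all groups. It lies on chromosome 7 from 25897620 to 25926624 and had 0.570, 1.5, 3.31, 0.293 and 2.24 CPM in GFP, 0.286, 0.144, 0.261, 0.481 and 0.275 in Cre, and 0.653 to 4.67 in Flpo (median 1.46). Flpo stood above Cre without overlap, and GFP 4 lay within the Cre range. In Cre against GFP its log2 fold change was -2.42 (SE 0.64, adjusted p = 0.0247) and in Flpo against Cre 2.68 (SE 0.63, adjusted p = 0.00865). The Cre values rest on 3.92 to 15.6 counts a library, and the call against GFP was lost in 5 of 16 fits with 1 library left out: without GFP 3, GFP 5, Cre 2, Cre 3 or Cre 5 (adjusted p = 0.0675, 0.0550, 0.0592, 0.0536 and 0.0508). It was also lost with limma-voom (adjusted p = 0.178), with quality weights added (0.217) and on log2(TPM + 1) (0.0846), and that of Flpo against Cre with limma-voom (0.0672) and, just above the threshold, with quality weights added.

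The neighbouring genes Cyp2b9 and Cyp2b13, which are known to be more active in the livers of female mice, are not among the members. Cyp2b9 had 175 ± 99.0 CPM in GFP, 4.61 ± 5.37 in Cre livers and 241 ± 108 in Flpo (log2 fold change -5.22 in Cre against GFP, SE 0.87, adjusted p = 0.00222). Cyp2b13 had 0 counts in all 5 Cre libraries, 0.512 to 10.4 CPM in GFP and 0.206 to 27.4 in Flpo. It thus passed the filter through GFP and Flpo libraries alone. Against a floor of 3 counts over the Cre group, its mean was at least 164-fold lower in Cre than in GFP, and at least 82.5-fold lower without GFP 5, the library at 10.4 CPM. Both differences between Cre and GFP were called, Cyp2b13 at an adjusted p of 0.0309, which 6 of 16 fits with 1 library left out lost: without GFP 1, GFP 5, Cre 1, Cre 2, Cre 3 or Cre 5 (adjusted p up to 0.0580). With limma-voom it was 0.222.

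The Cyp2c genes moved in both directions. Cyp2c members oxidise arachidonic acid, retinoids and many drugs, and 11 of the 12 stand in 1 block of 1107 kb on chromosome 19 (39007019 to 40113950), with Cyp2c23 3.89 Mb away. In Cre against GFP 3 rose and 2 fell, beside 3.97% and 5.58% of all genes. In Flpo against Cre 4 were higher and 1 was lower, beside 7.45% and 6.26%. In gene order along the block, the first 4 genes (Cyp2c55, Cyp2c29, Cyp2c38 and Cyp2c39) had log2 fold changes of -2.51 to -0.60 in Cre against GFP, and the other 7 had -0.05 to 2.05. In Flpo against GFP the first 4 lay between -0.62 and 0.36 and the other 7 between 0.03 and 1.32. This order was noticed after the values were seen and has no test.

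**Figure D3:**
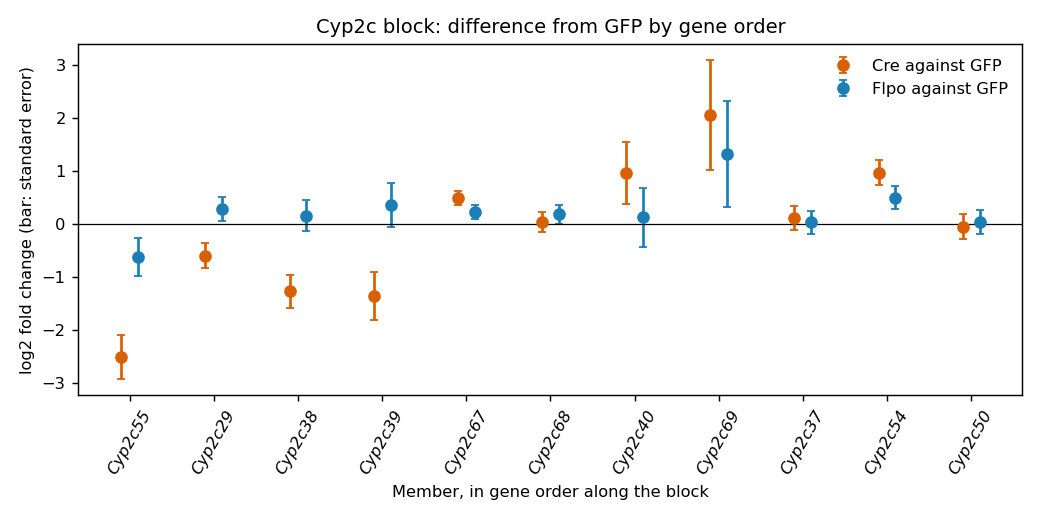
The log2 fold change and standard error of the 11 Cyp2c members of the block, in gene order along the chromosome, in Cre against GFP and in Flpo against GFP. The first 4 Cre points lie between -2.51 and -0.60, and 6 of the other 7 lie above 0.

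Cyp2c55, an arachidonic acid hydroxylase known from colon, lies at 39007019 to 39042693 and was at the low end of detection. It had 1.30, 0.785, 0.452, 1.04 and 1.94 CPM in GFP, 0.179, 0.108, 0.186, 0.241 and 0.235 in Cre, and 0.426 to 1.03 in Flpo (median 0.694). No Cre library reached any GFP or Flpo library. It changed by -2.51 log2 units in Cre against GFP (SE 0.42, adjusted p = 0.00114) and 1.89 in Flpo against Cre (SE 0.41, adjusted p = 0.00486), on 2.98 to 8.0 counts in a Cre library.

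Cyp2c38, at 39389556 to 39463075, had 101, 78.4, 86.6, 70.6 and 117 CPM in GFP, 18.4, 34.0, 17.6, 77.5 and 39.8 in Cre, and 88.2 to 122 in Flpo (median 94.1). Of the Cre libraries, Cre 4 alone reached the GFP range. In Cre against GFP it changed by -1.27 in log2 units (SE 0.31, adjusted p = 0.0182) and was 1.43 higher in Flpo than in Cre (SE 0.31, adjusted p = 0.00564). The call against GFP was lost when all genes were tested without the filter (adjusted p = 0.0553) and when only the 2 groups were fitted (0.0682). Its neighbour Cyp2c39, a retinoic acid hydroxylase gene at 39510862 to 39568529, had 6.81, 4.16, 4.52, 3.32 and 7.52 CPM in GFP, 1.65, 1.29, 0.149, 3.25 and 3.92 in Cre, and 5.53 to 8.79 in Flpo (median 6.66). Cyp2c39 was called in Flpo against Cre (1.72, SE 0.44, adjusted p = 0.0162) but not in Cre against GFP (-1.36, SE 0.46, adjusted p = 0.0718).

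Cyp2c29, an abundant epoxygenase at 39269405 to 39330713 that CAR activators are known to induce, had 417, 276, 344, 356 and 638 CPM in GFP, 214, 239, 210, 474 and 203 in Cre, and 385 to 552 in Flpo (median 511). Of the 5 Cre libraries 4 lay below every other library, and Cre 4 lay in the midst of the Flpo range. The gene was higher in Flpo than in Cre by 0.88 log2 units (SE 0.23, adjusted p = 0.0176), and this call was lost without Cre 3 (adjusted p = 0.0514). With Cyp2c29, Cyp2c38 and Cyp2c39 summed, the difference was 0.96 in Flpo against Cre (adjusted p = 0.00953) and -0.71 in Cre against GFP (adjusted p = 0.0696). Cyp2c29 made most of that sum. The closer copies Cyp2c38 and Cyp2c39 (94.2% identical) were also summed without it, a setting chosen after seeing the data. Their sum was called in both comparisons, at 1.44 (adjusted p = 0.00535) and -1.28 (adjusted p = 0.0180) in that order.

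Cyp2c23, an arachidonic acid epoxygenase at 44005022 to 44029208 with no near copy (its closest member was 67.8% identical), was the member with the firmest rise in Cre livers. It had 74.4, 75.2, 133, 80.2 and 112 CPM in GFP, 229, 250, 268, 238 and 156 in Cre, and 74.6 to 167 in Flpo (median 116). Every Cre library stood above every GFP library, and only Cre 5 lay within the Flpo range. Its log2 fold change was 1.26 in Cre against GFP (SE 0.22, adjusted p = 0.00180), a 2.40-fold rise, and -0.98 in Flpo against Cre (SE 0.21, adjusted p = 0.00446).

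Cyp2c54, at 40037940 to 40073827, had 81.0, 90.7, 102, 89.7 and 158 CPM in GFP, 168, 181, 209, 300 and 160 in Cre, and 91.8 to 186 in Flpo (median 154). It rose by 0.97 log2 units in Cre against GFP (SE 0.23, adjusted p = 0.0144), without overlap, and GFP 5 stood close to the lowest Cre library. Its copies Cyp2c50 and Cyp2c37 had log2 fold changes of -0.05 and 0.11 in the same comparison, and the sum of the 3 had 0.16 (adjusted p = 0.687). Cyp2c67, at 39608842 to 39649051, had 206, 201, 244, 214 and 218 CPM in GFP, 257, 283, 313, 282 and 377 in Cre, and 198 to 333 in Flpo (median 234). Its rise of 0.48 in Cre against GFP (SE 0.13, adjusted p = 0.0309) was lost in 6 of 16 fits with 1 library left out: without GFP 1, GFP 2, GFP 4, GFP 5, Cre 3 or Cre 5 (adjusted p = 0.0608, 0.0652, 0.0540, 0.0584, 0.0578 and 0.0783), on library totals alone (0.0814) and on log2(TPM + 1) and log2(TPM + 0.1) (0.140 and 0.171). Summed with its copies Cyp2c40, Cyp2c68 and Cyp2c69 the difference was 0.31 (adjusted p = 0.179).

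The other Cyp2c members were not called. Cyp2c68 had 180 ± 40.0 CPM in GFP, 185 ± 41.6 in Cre livers and 204 ± 47.1 in Flpo. Cyp2c37 had 247 ± 58.9, 267 ± 76.5 and 252 ± 72.7 in that order. The scarce Cyp2c40 ran from 1.82 to 17.7 CPM and Cyp2c69 from 0.0344 to 8.99, and for Cyp2c69 the 95% interval of the log2 difference of Cre from GFP, -0.15 to 4.25, was the widest of the members.

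Of the 5 Cyp2d members tested, 1 was called, in Flpo against Cre, where 13.7% of all genes were. Cyp2d22, which lies on chromosome 15 from 82370527 to 82380260, had 192, 182, 217, 184 and 240 CPM in GFP, 187, 165, 182, 189 and 163 in Cre, and 223 to 246 in Flpo (median 234). Every Flpo library stood above every Cre library, and the difference was 0.41 log2 units (SE 0.08, adjusted p = 0.00271), the smallest of the called ones. GFP lay between, with -0.20 in Cre against GFP (adjusted p = 0.158) and 0.21 in Flpo against GFP (adjusted p = 0.422). Cyp2d40 had 85 ± 14.7 CPM in GFP, 102 ± 29.7 in Cre livers and 88.6 ± 16.9 in Flpo, and the scarce Cyp2d12 ran from 0 to 0.756. Outside the members, Cyp2d9, a male-biased steroid hydroxylase, had 1121 ± 132 CPM in GFP and 1676 ± 319 in Cre and was called (0.58, SE 0.18, adjusted p = 0.0457).

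Cyp2g1, a gene best known from the olfactory lining, lies on chromosome 7 from 26808892 to 26821205 and had the second largest difference. It had 0.761, 0.409, 1.08, 1.63 and 1.23 CPM in GFP, 0.107, 0.108, 0.0746, 0.0301 and 0 in Cre, and 0.240 to 1.09 in Flpo (median 0.829). No Cre library reached the other groups, and the Cre group held 0 to 3.35 counts a library. The fitted log2 fold change was -3.92 in Cre against GFP (SE 0.61, adjusted p = 0.000683) and 3.43 in Flpo against Cre (SE 0.60, adjusted p = 0.00110).

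Of the 3 Cyp2j members, which are fatty acid epoxygenases, 1 was called, in Flpo against Cre, where 13.7% of all genes were. Cyp2j6, on chromosome 4 from 96516138 to 96553661, had 64.4, 66.1, 55.6, 59.0 and 69.5 CPM in GFP, 42.2, 50.5, 62.6, 56.3 and 32.6 in Cre, and 62.1 to 69.9 in Flpo (median 65.2). Of the Cre libraries 4 lay below the Flpo range. The difference was 0.42 in Flpo against Cre (SE 0.12, adjusted p = 0.0302) and -0.37 in Cre against GFP (adjusted p = 0.0830). The former was lost in 6 of 16 fits with 1 library left out, without Cre 1, Cre 2, Flpo 3, Flpo 4, Flpo 5 or Flpo 6 (adjusted p = 0.0819, 0.0529, 0.0547, 0.0605, 0.0530 and 0.0696), and with only the 2 groups fitted (0.0662). Cyp2j5 had 486 ± 34.8 CPM in GFP, 412 ± 73.8 in Cre livers and 487 ± 57.5 in Flpo, and Cyp2j9 had 3.13 ± 0.912, 4.56 ± 1.36 and 2.68 ± 1.12. The vitamin D hydroxylase gene Cyp2r1 had 8.36 ± 1.26, 7.25 ± 2.23 and 6.67 ± 1.33 CPM, and the fatty acid hydroxylase gene Cyp2u1 30.5 ± 9.39, 40.9 ± 15 and 23.9 ± 14.6, in the same order. None of these 4 was called.

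Of the 4 Cyp3a members tested, 1 was called, in Cre against GFP and in Flpo against Cre, where 9.55% and 13.7% of all genes were. Cyp3a59 lies on chromosome 5 from 146079257 to 146113287 and had 20.5, 11.6, 16.8, 15.2 and 22.1 CPM in GFP, 7.40, 8.26, 7.16, 15.3 and 4.91 in Cre, and 11.9 to 28.9 in Flpo (median 19.1). Of the Cre libraries 4 lay below all others, and Cre 4 lay within the ranges of GFP and Flpo. The log2 fold change was -1.0 in Cre against GFP (SE 0.29, adjusted p = 0.0371) and 1.16 in Flpo against Cre (SE 0.28, adjusted p = 0.0102). The call against GFP was lost in 8 of 16 fits with 1 library left out: without GFP 1, GFP 3, GFP 4, GFP 5, Cre 1, Cre 2, Cre 3 or Cre 5 (adjusted p = 0.0824, 0.0599, 0.0530, 0.0895, 0.0790, 0.0711, 0.0828 and 0.0845). It was also lost without the filter on low counts (0.0911) and with only the 2 groups fitted (0.0516). Its copy Cyp3a25 had 320 ± 44.4 CPM in GFP, 300 ± 73.6 in Cre livers and 314 ± 50.3 in Flpo. The summed pair had a difference of -0.13 in Cre against GFP (adjusted p = 0.684). That sum is mostly Cyp3a25 and says little of Cyp3a59 alone. Cyp3a13 had 155 ± 24.8, 135 ± 33.8 and 184 ± 40.0 CPM and was not called.

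**Figure D4:**
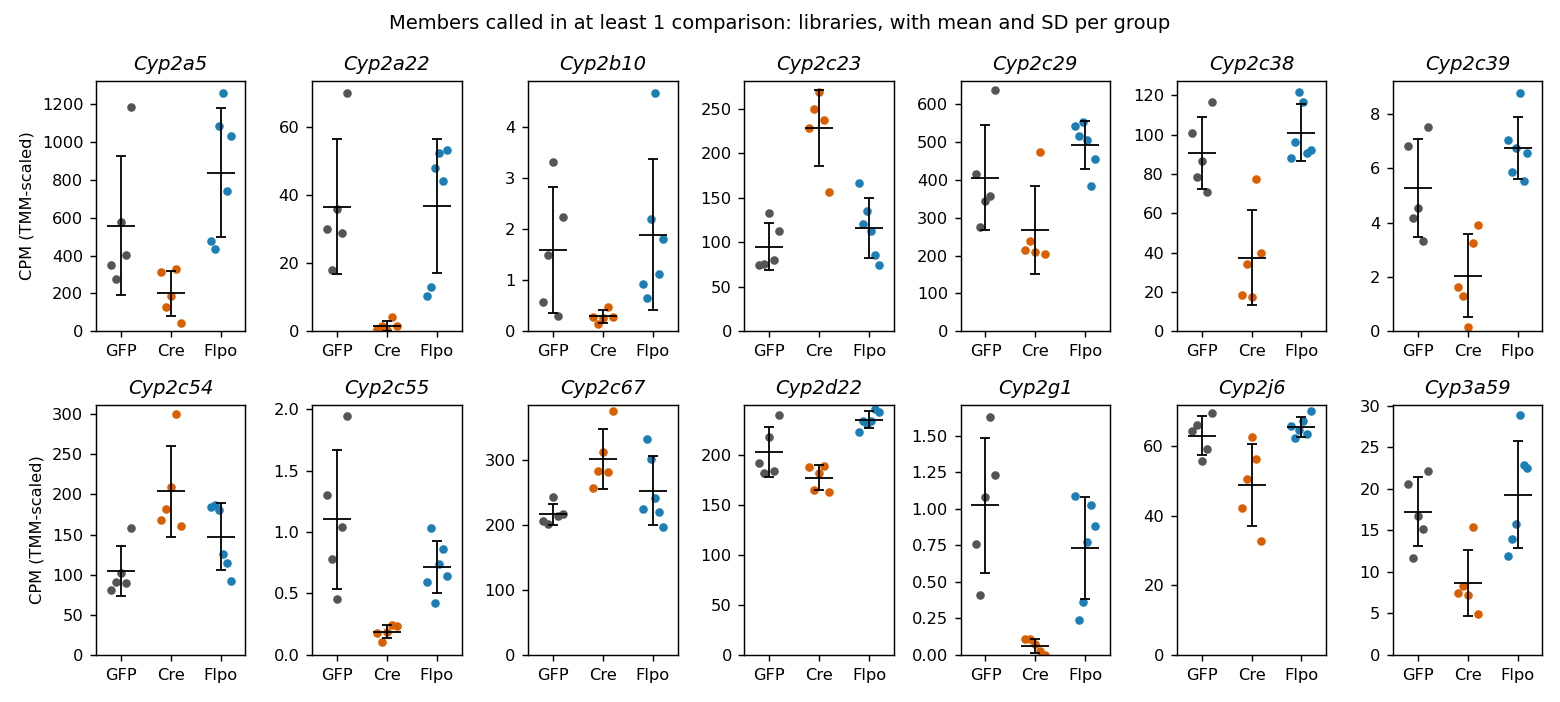
CPM of the 14 members called in Cre against GFP or in Flpo against Cre, with 1 point per library and the mean and SD of each group (GFP 5, Cre 5, Flpo 6). Cre points lie below all others for Cyp2a22, Cyp2c55 and Cyp2g1, and above all GFP points for Cyp2c23, Cyp2c54 and Cyp2c67.

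Por, on chromosome 5 from 135670033 to 135735326, overlapped between all groups and was not called. It had 269, 225, 348, 342 and 517 CPM in GFP, 585, 260, 358, 509 and 1063 in Cre, and 386 to 786 in Flpo. Its log2 fold change was 0.71 in Cre against GFP (SE 0.32, adjusted p = 0.183) and 0.82 in Flpo against GFP (SE 0.31, adjusted p = 0.422). Of 16 genes for cytochrome b5, its reductase and heme synthesis, 1 was called in Cre against GFP: Cyb5r3, which reduces cytochrome b5, fell by 0.48 in log2 units (SE 0.10, adjusted p = 0.00755). In Flpo against Cre it was 0.53 higher (SE 0.10, adjusted p = 0.00178), again the one called gene of the 16. Among all genes, 9.55% were called in Cre against GFP and 13.7% in Flpo against Cre. Alas1, which starts heme synthesis, had 886 ± 376 CPM in GFP, 832 ± 447 in Cre livers and 1269 ± 332 in Flpo and was not called.

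Of 24 tested transcription factor genes for xenobiotic and liver expression, 1 rose and 1 fell in Cre against GFP. Among all genes, 3.97% were higher and 5.58% lower in that comparison. Foxa3 rose by 0.71 (SE 0.16, adjusted p = 0.00869) and Nr1h4, the bile acid receptor FXR, fell by 0.35 (SE 0.10, adjusted p = 0.0334). In Flpo against Cre 4 of the 24 were higher and 1, Foxa3, was lower, beside 7.45% and 6.26% of all genes. The 4 included both xenobiotic receptors: Nr1i3, which encodes CAR, was 0.80 higher (SE 0.21, adjusted p = 0.0183), at 212 ± 82.8 CPM in GFP, 154 ± 35.8 in Cre livers and 269 ± 39.8 in Flpo. Nr1i2, which encodes PXR, was 0.40 higher (SE 0.13, adjusted p = 0.0488), and the others were Nr1h4 and Arnt, the partner of AhR. Hnf4a had 542 ± 68.5, 592 ± 51.6 and 569 ± 71.1 CPM and was not called. In Flpo against GFP 0 of the 24 were called.

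Grouped by the receptor they are known to answer to, 8 CAR and PXR members had 1 higher (Cyp2c54) and 2 lower (Cyp2b10 and Cyp2c55) in Cre against GFP, where 3.97% of all genes were higher and 5.58% lower, and 4 higher in Flpo against Cre, where 7.45% of all genes were. Their median log2 fold changes were -0.46 and 0.64. The 2 AhR members had none called. Of 8 members known as female-biased in mouse liver, 7 were tested: 3 were lower in Cre than in GFP (Cyp2b10, Cyp2c38 and Cyp2g1), beside 5.58% of all genes, and 4 were higher in Flpo than in Cre, beside 7.45%, with medians of -1.27 and 1.72. The scarce members Cyp2c40 and Cyp2c69 went the other way without a call. They had 0.96 (SE 0.58) and 2.05 (SE 1.04) in Cre against GFP, and -0.84 (SE 0.55) and -0.73 (SE 0.93) in Flpo against Cre. All 16 libraries had Xist, the female transcript of the inactive X, at 0 to 0.0913 CPM and the Y-linked Ddx3y at 42.3 to 69.7. This is the pattern of male livers, in every group. The 15 tested genes of other oxidative drug metabolism had 1 higher and 4 lower in Cre against GFP, among them Adh1, the alcohol dehydrogenase, at -0.90 (SE 0.14, adjusted p = 0.000497) and Nqo1, a quinone reductase, at -0.86 (SE 0.21, adjusted p = 0.0166). In Flpo against Cre 7 of the 15 were higher and 1 was lower. Of all genes, 3.97% were higher and 5.58% lower in Cre against GFP, and 7.45% and 6.26% in Flpo against Cre. These lists were chosen with results of the same libraries known, so their counts describe these livers and are not independent evidence of a direction.

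Cyp2e1, Cyp1a2 and many Cyp2c members are known to be pericentral, so genes of both lobule zones were set beside them. Of 12 pericentral markers other than the members, 1 was higher (Axin2, 0.89, adjusted p = 0.0114) and 1 lower (Slc22a3) in Cre against GFP, with a median of -0.0012. In Flpo against Cre 3 were higher, among them the glutamine synthetase gene Glul (0.68, SE 0.12, adjusted p = 0.00137), and 2 lower. Of 12 periportal markers 3 were higher and 0 lower in Cre against GFP, among them Pck1 (1.31, SE 0.25, adjusted p = 0.00381). Among all genes, 3.97% were higher and 5.58% lower in Cre against GFP, and 7.45% and 6.26% in Flpo against Cre. The part of zonation in the members' differences was not tested.

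The groups also differed in clock genes, and the labels give no time of harvest. Dbp, a clock output factor, had 91.1 ± 15.4 CPM in GFP, 40.4 ± 27 in Cre livers and 112 ± 23.7 in Flpo, and fell in Cre against GFP (-1.17, SE 0.32, adjusted p = 0.0326). Of 16 clock and PAR bZIP genes, 3 were lower in Cre than in GFP and none was higher, beside 5.58% and 3.97% of all genes. In Flpo against Cre 8 were higher and 4 lower, beside 7.45% and 6.26%. A clock score, the mean z-score of Dbp, Nr1d1, Nr1d2, Per1, Per2, Per3 and Ciart less that of Arntl, Npas2 and Clock, ran from -1.39 to 1.11 in GFP, from -2.33 to 0.13 in Cre and from 0.17 to 2.17 in Flpo. Of the 7 genes that raise the score, 5 were higher and 1 was lower in Flpo than in Cre. The lower one was Nr1d1 (log2 fold change -1.23, SE 0.29, adjusted p = 0.00896), which thus ran against the score. Its difference between Cre and GFP was 0.44 (SE 0.30, adjusted p = 0.397). The score therefore does not stand for a shared movement of all its genes. Cre 4 had the highest score of the Cre group. It was also the highest Cre library in 18 of 37 members, Cyp2a22, Cyp2c29, Cyp2c38 and Cyp3a59 among them. A link between the score and these values was not tested.

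With the clock score as a covariate, 5 members were called in Cre against GFP: Cyp2a22 (-3.70, adjusted p = 0.000939), Cyp2c55 (-2.28, adjusted p = 0.0134), Cyp2g1 (-3.73, adjusted p = 0.00976), Cyp2c23 (1.30, adjusted p = 0.0156) and Cyp2c54 (1.21, adjusted p = 0.0136). Cyp2b10, Cyp2c38, Cyp2c67 and Cyp3a59 were no longer called (adjusted p = 0.174, 0.0703, 0.0969 and 0.201). In Flpo against Cre, where the scores of the groups do not overlap, 0 of the 12 called members passed and 25 of all genes did. In that comparison the fit parts score and group only through the score's spread within groups, and it does not decide between them. The log2 fold change of Cyp2a22 was then 2.64 (adjusted p = 0.193), that of Cyp2g1 3.12 (adjusted p = 0.268), that of Cyp2c29 0.23 (adjusted p = 0.907) and that of Cyp2c23 -1.05 (adjusted p = 0.369).

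**Figure D5:**
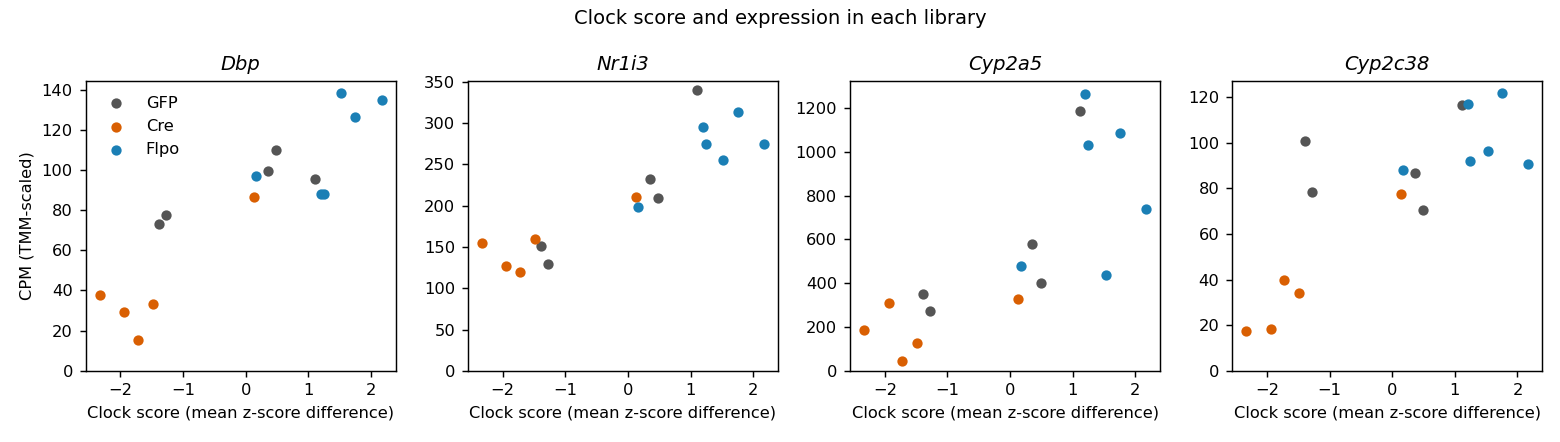
CPM of Dbp (itself part of the score), Nr1i3, Cyp2a5 and Cyp2c38 against the clock score of each library, coloured by group. Of the 5 Cre libraries 4 lie at scores from -2.33 to -1.49, Cre 4 lies at 0.13, and all 6 Flpo libraries lie at 0.17 or above.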

How the data were processed

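Total RNA of liver, enriched for polyA, was sequenced as paired reads of 150 bases, per the labels' protocols. The submitters' processing notes name cutadapt, STAR and the build mm10. The authors deposited 2 tables of the same 16 libraries, estimated counts per gene and TPM. Which program counted, with which annotation and strand setting, the sources used here do not say. Values were rounded before testing, since 31.7% of the deposited counts were fractional.

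Counts were tested with edgeR 4.0.16 in R 4.3.3: filterByExpr (minimum count 10), TMM factors, and 1 robust quasi-likelihood fit of all 16 libraries with 3 contrasts, adjusted over 13905 genes. Alternatives used DESeq2 1.42.0, limma 3.58.1 and the other settings of the closing section. Levels are mean ± SD. Positions and coding sequences come from GENCODE on GRCm38, promoters from RefSeq on GRCm38.p6. For every member called in a comparison and the 8 most abundant, the text gives each GFP and Cre library and the range and median of the 6 Flpo libraries. It also names other called Cyp genes and up to 4 called genes of each partner list. Members and lists were chosen with earlier results of these data known.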

Additional observations from a re-analysis of the deposited data

Results flagged for a closer look

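In 111 checks of 1 member in 1 group, 10 had a library far from the others of its group, where chance gives about 1 in 20, or 5.55. GFP 5 was the high library for Cyp2e1 (11288 CPM, next 9372), Cyp2c50 (809, next 495) and Cyp2c54 (158, next 102), and it was the highest GFP library in 26 of 37 members. Cre 4 was the high one for Cyp2a22 (4.15 CPM, next 1.54) and Cyp2c29 (474, next 239). Cre 5 was high for Cyp2c69 (8.99 CPM, next 1.14) and low for Cyp2r1 (3.37, next 7.43). Cre 1 was low for Cyp2a4 (0.286 CPM, next 3.66), Flpo 6 low for Cyp1a1 (0.272, next 0.495) and Flpo 3 high for Cyp2c40 (11.5, next 5.27). Of these genes Cyp2a22 and Cyp2c54 were called against GFP, and both calls held with each library left out in turn, at log2 fold changes of -5.17 to -4.07 and of 0.78 to 1.16.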

How the results depend on the processing

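No called member changed sign in any of 28 settings. In Cre against GFP, Cyp2a22, Cyp2c23, Cyp2c54, Cyp2c55 and Cyp2g1 were called in every setting that tested them as single rows, and 9 members without a call gained one in some setting. The 9 member calls stand beside 1328 calls among all 13905 genes. They became 5 with the clock score as a covariate (2 higher, 3 lower), where 416 of all genes were called. On log2(TPM + 1) they became 14 (2 higher, 12 lower), beside 2135 of all genes. On library totals alone they became 12 (2 higher, 10 lower), beside 1956. With related members summed in 7 sets, 5 of 26 rows were called (1 higher, 4 lower). Those sets leave Cyp2a12 and Cyp2a22 apart and hold less similar members such as Cyp2c29 and Cyp2d40. With all members linked by at least 90% coding identity summed, a setting chosen after seeing the data, 5 of 27 rows were called (1 higher, 4 lower). The sum of Cyp2a12 and Cyp2a22 was not. Leaving out 1 library gave 7 to 10 member calls, beside 960 to 1462 calls among all genes tested. On log2(TPM + 1) the low members Cyp2b10, Cyp2c55 and Cyp2g1 had -0.77, -0.63 and -1.08, since the added 1 shrinks low values. The 12 calls of Flpo against Cre became 0 with the clock score, 11 with the replicate block and 11 to 14 with 1 library left out. Over all genes tested the same fits had 25, 1352 and 1454 to 2189 calls, beside 1906 in the main fit. With the clock score Nr1i2 and Nr1i3 turned to -0.014 and -0.19 in that comparison (adjusted p = 0.995 and 0.890); the cause was not tested. Members in Flpo against GFP stayed at 0 calls in every setting.

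Over all genes, Cre against GFP had 834 calls with only the 2 groups fitted, 416 with the clock score, 2135 on log2(TPM + 1) and 2000 on log2(TPM + 0.1), where 1919 and 1800 were lower. Flpo against GFP had 72 calls with DESeq2, 0 with limma-voom, 20 with quality weights, 1 with only the 2 groups fitted, 0 with the replicate block, 0 with the clock score, 2 on log2(TPM + 1), 1 on log2(TPM + 0.1), and 0 to 15 with 1 library left out. Flpo against Cre had 25 with the clock score. The block, fitted without Flpo 6, gave 9, 0 and 11 member calls in the 3 comparisons. The main fit treats the libraries as unpaired. Same-numbered deviations correlated from -0.21 to 0.19, and 3 of 15 pairs were over 0.1. Pairs with different numbers were not compared, so this does not decide whether the titles' numbers pair the libraries. Under library totals the median of all genes moved to -0.14 in Cre against GFP and 0.13 in Flpo against Cre. Low counts limit Cyp2b10, Cyp2c55 and Cyp2g1, and shared reads limit members with near copies.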
